A study of Homo sapiens with 18 samples.

Results

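The 31 genes described here are 19 aminoacyl-tRNA synthetases and 12 amino acid transporters, chosen by symbol from a list that used no measured value. Each had an array row annotated with its symbol alone, so all 31 were found, among 16111 genes tested. Transcript levels came from 18 Affymetrix Human Gene 2.1 ST arrays of HEK293 cells, a human embryonic kidney line, all overexpressing murine TLR5, the receptor for bacterial flagellin. Cells received isolated flagellin of E. coli Nissle (EcN), isolated flagellin of Salmonella Typhimurium SL1344 (ST) or a mock control, each for 60 or 120 min. Each group has 3 arrays, which the labels call biological replicates A, B and C. The mock cells carry the same receptor, and the promoter driving it and the number of clones are not stated in the labels. The flagellin concentration was matched to a multiplicity of infection of 10. All cells had grown to passage 7 in SILAC medium, in which lysine and arginine carried a heavy, medium or light isotope label. Which array carried which label is unknown here, and an effect of the label and one of flagellin cannot be told apart. For the 6 ST arrays the description fields name mock, whereas ST is given by their titles, treatment fields and source names, which were followed. The labels do not say whether these biological replicates are separate cultures. The p-values therefore measure the spread between these arrays, which may be partly technical.

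Aminoacyl-tRNA synthetases charge each tRNA with its amino acid before translation. Several of them (here EPRS1, IARS1, KARS1, LARS1, MARS1, QARS1 and RARS1) sit in a multi-synthetase complex, and the others work outside it. Plasma membrane transporters such as SLC7A5, which pairs with the heavy chain SLC3A2, bring amino acids into the cell, and SLC38A9 senses arginine at the lysosome for the growth kinase mTORC1. When uncharged tRNA accumulates, the kinase GCN2 raises translation of the transcription factor ATF4, which binds ATF-C/EBP composite elements in many synthetase and transporter genes. WARS1, the tryptophan enzyme, is also a classical interferon-induced gene.

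RefSeq promoter windows of the GRCh38.p14 assembly, from 250 bases before to 50 bases after a start, were matched by symbol for 27 of the 31 genes, all but LARS1, SLC7A2, VARS1 and YARS1. The composite motif TTGCATCA, searched on both strands, was present in 8 of these 27 genes (AARS1, CARS1, IARS1, MARS1, NARS1, SLC1A4, SLC1A5 and TARS1), against 1.08% of all 27305 genes with a window. The core of the interferon-stimulated response element (GAAA, any 2 bases, GAAA), searched the same way, was present in 1 of the 27 genes, WARS1, against 4.38% of all genes. A match is a string of letters and was not tested as a binding site. The 4 stretches below belong to the motif-bearing genes that the results turn on: 3 with the composite motif whose levels are described further on, and WARS1 with the interferon core. Capitals mark the motif, and each stretch reads 5′ to 3′ on the gene's strand.
AARS1: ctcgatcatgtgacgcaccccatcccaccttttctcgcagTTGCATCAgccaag
CARS1: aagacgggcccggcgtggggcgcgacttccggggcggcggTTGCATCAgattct
NARS1: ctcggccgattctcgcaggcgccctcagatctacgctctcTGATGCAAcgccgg
WARS1: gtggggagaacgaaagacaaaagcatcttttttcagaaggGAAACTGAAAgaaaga
The AARS1 stretch lies at chr16:70289680-70289733 on the minus strand, with the motif starting 187 bases before the annotated start. That of CARS1 lies at chr11:3057412-3057465 on the minus strand, with the motif starting 2 bases before the start. NARS1 holds the motif in reverse complement from base 15 of the transcript, at chr18:57621809-57621862 on the minus strand. The WARS1 stretch lies at chr14:100375387-100375442 on the minus strand, with the core starting 55 bases before the start.

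All values below are the deposited log2 levels, and differences are log2 fold changes with their SE from limma, where a gene is called at a Benjamini-Hochberg adjusted p under 0.05 over all 16111 genes. On each of the 18 arrays, all 31 genes exceeded the median of that array. That median is taken over all rows and is low, at 2.27 to 2.32. Among the genes tested, the mean of SLC38A9 lay at percentile 36.8 and that of CARS1 at 50.9. The 31 genes varied little: the range of a gene's level over the 18 arrays was smallest for MARS1 at 0.31, largest for SLC43A1 at 1.10, and had a median of 0.55. Their residual SD between arrays of a group had a median of 0.11, against 0.18 over all genes, which were not matched for level. VARS1 had 2 rows, and the brighter one was used.

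Some arrays did not follow their labels' groups. NFKBIA, an NF-kB target, stood at 10.15 to 10.85 on the 4 flagellin arrays lettered C, and mock 120 min A reached 10.83, while the other 13 arrays lay between 8.09 and 8.82. None of the 31 genes had these 5 arrays all at one end of its values, as 28 of 16111 genes did. The interferon-stimulated gene ISG15 lay above the mock arrays of its time on every flagellin array, but the EcN arrays lettered A stood apart. At 60 min EcN A stood at 4.22, against 5.91 and 5.79 in B and C, and at 120 min at 4.53, against 6.12 and 5.84. ISG15 was higher than in mock at 60 min by 1.92 ± 0.41 in EcN (adjusted p = 0.0199) and 3.13 ± 0.41 in ST (adjusted p = 0.00532). EGR1, an immediate-early gene, stood at 9.80, 10.99 and 10.84 in mock 120 min, against 9.27, 9.04 and 8.89 in mock 60 min. On the flagellin arrays EGR1 stood at 10.33 to 11.52 at 60 min and at 8.81 to 10.01 at 120 min. All 6 HEK293 markers passed the filter on low values. NEFL, VIM, PAX2, KRT18 and KRT8 had means of 10.38, 7.91, 5.68, 5.54 and 4.35. NEFM, at a mean of 2.04, lay near the array medians of 2.27 to 2.32. Of markers of other cells, 2 of 5 leukocyte markers (CD14 and CD68), 3 of 5 fibroblast markers (COL1A1, LUM and PDGFRB) and 4 of 5 intestinal epithelial markers (CDX2, VIL1, MUC2 and LGR5) also passed. CD68, LGR5, CDX2, LUM and COL1A1 had means of 9.28, 8.71, 5.92, 5.53 and 4.68, well above the array medians, and the other 4 had means of 2.09 to 2.60. PTPRC, LYZ, CD3E, COL1A2, DCN and FABP2 did not pass.

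**Figure D1:**
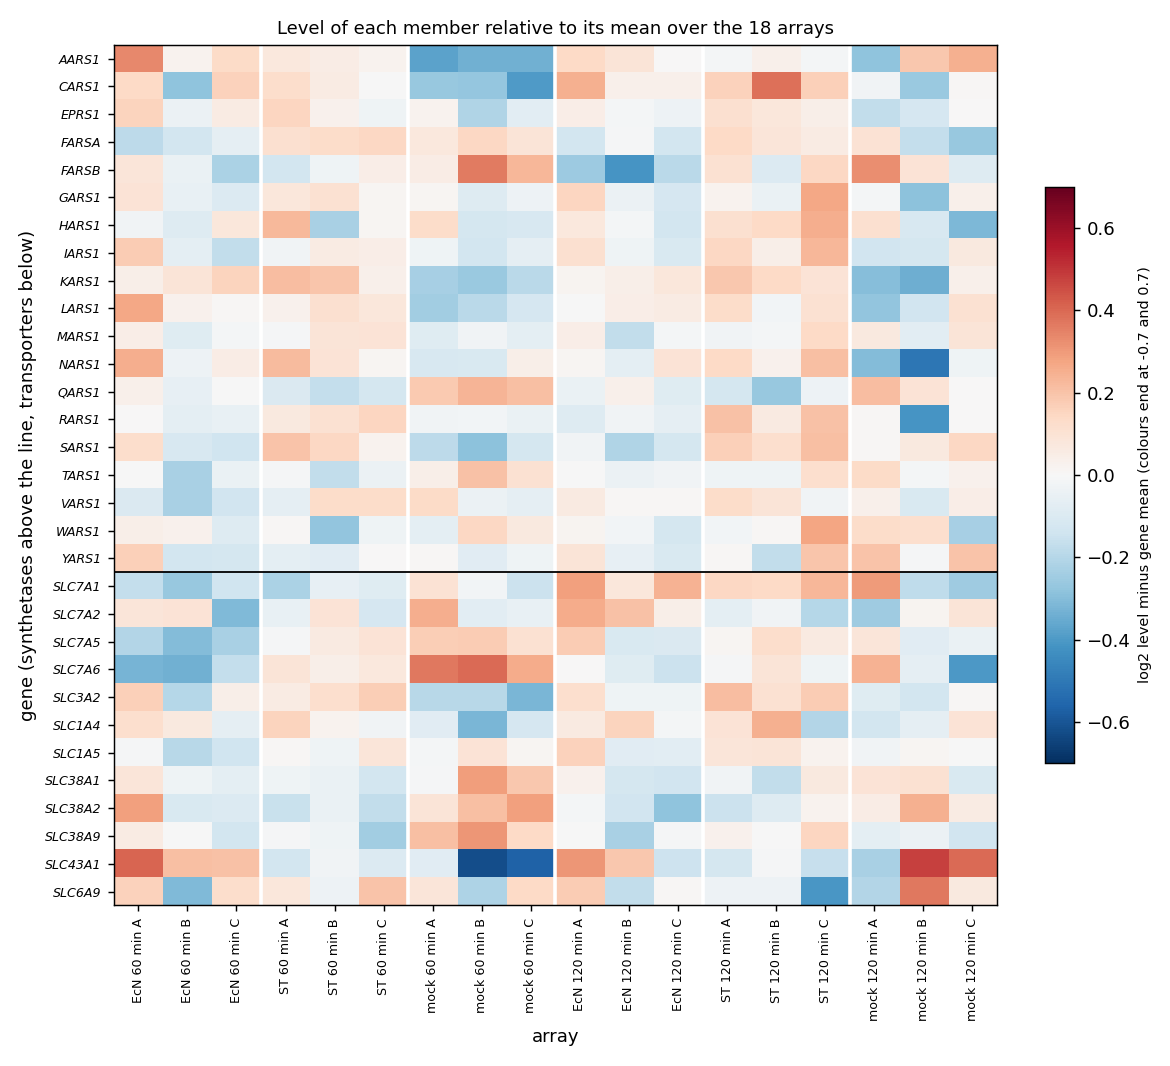
Log2 level of each of the 31 genes (rows) on each of the 18 arrays (columns), minus the gene's mean over all arrays; red is above and blue below that mean, and the colours end at 0.7 either way. The mock 60 min columns are the lowest of all for AARS1 and the highest of all for SLC7A6, with mock 120 min A next to them in both. Mock 120 min A also shares their level in KARS1, where mock 120 min B does too, and in QARS1.

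At 60 min, a few of these genes differed between flagellin and mock arrays, in both directions. No called difference was larger than 0.70 on the log2 scale. With EcN, AARS1 and SLC43A1 were higher and SLC7A5 and SLC7A6 lower than in mock. That is 4 of 31 genes called, beside 6.45% of all genes (3.08% higher and 3.37% lower). With ST, KARS1 and SLC3A2 were higher and QARS1 lower, which is 3 of 31, beside 5.26% of all genes (2.23% higher and 3.03% lower). With both flagellins pooled against the same 3 mock arrays, 8 of 31 were called, beside 10.3% of all genes (4.53% higher and 5.75% lower). AARS1, CARS1, KARS1, SLC3A2 and SLC43A1 were higher, and QARS1, SLC7A6 and SLC38A9 lower. Over the 31 genes the median difference was 0.03, against 0.01 over all genes and 16 of the 31 genes stood above 0, against 51.2% of all genes. The 23 genes not called lay between -0.27 and 0.27, and their 95% intervals between -0.49 and 0.46. The EcN and ST comparisons share their mock arrays.

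Counts of genes whose arrays did not overlap between groups were also near the background for EcN. The 3 EcN arrays lay wholly above or below the 3 mock arrays for 12 of 31 genes, beside 31.9% of all genes. The 3 ST arrays did so for 19 of 31 genes, beside 30.2%, with 11 above mock and 8 below, beside 14.2% and 15.9%. For all 6 flagellin arrays at 60 min the count was 9 of 31, beside 17.6%, and these were AARS1, KARS1, LARS1 and SLC1A4 above mock and QARS1, TARS1, SLC7A5, SLC7A6 and SLC38A9 below it. Of all genes 8.22% lay wholly above and 9.4% wholly below.

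Of the 19 synthetases, 3 were higher and 1 lower with both flagellins at 60 min, beside 4.53% and 5.75% of all genes. Outside the multi-synthetase complex, AARS1, the alanine enzyme (transcript cluster 16827764), stood at 10.13, 9.81 and 9.92 in EcN 60 min and 9.86, 9.84 and 9.81 in ST 60 min, against 9.41, 9.45 and 9.45 in mock 60 min. All 6 flagellin arrays lay above the mock arrays, and EcN A was the highest. The difference was 0.52 ± 0.12 for EcN (adjusted p = 0.0256), 0.40 ± 0.12 for ST (adjusted p = 0.0614) and 0.46 ± 0.10 for both (adjusted p = 0.0142), the last being 1.37-fold. At 120 min AARS1 stood at 9.93, 9.88 and 9.79 in EcN and 9.77, 9.82 and 9.78 in ST, against 9.50, 9.98 and 10.04 in mock. Here the mock arrays B and C lay above all 6 flagellin arrays, and mock A stayed near the mock 60 min arrays.

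CARS1, the cysteine enzyme (transcript cluster 16734526), stood at 5.62, 5.20 and 5.65 in EcN 60 min and 5.60, 5.54 and 5.48 in ST 60 min, against 5.22, 5.21 and 5.09 in mock 60 min. EcN B lay within the mock range, and the other 5 flagellin arrays lay above it. CARS1 was called for both flagellins together at 0.34 ± 0.11 (adjusted p = 0.0494), close to the threshold, and for neither alone. At 120 min it stood at 5.73, 5.52 and 5.52 in EcN and 5.64, 5.87 and 5.65 in ST, against 5.46, 5.22 and 5.49 in mock. The 6 flagellin arrays lay above the 3 mock arrays, and the difference of 0.26 ± 0.11 was not called (adjusted p = 0.196).

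Within the complex the called members differed from mock in opposite directions. KARS1, the lysine enzyme (transcript cluster 16828514), stood at 8.98, 9.04 and 9.10 in EcN 60 min and 9.16, 9.14 and 8.98 in ST 60 min, against 8.71, 8.68 and 8.75 in mock 60 min. All 6 flagellin arrays lay above mock, by 0.38 ± 0.10 for ST (adjusted p = 0.0376), 0.32 ± 0.10 for EcN (adjusted p = 0.0586) and 0.35 ± 0.09 for both (adjusted p = 0.019). At 120 min KARS1 stood at 8.96, 8.98 and 9.02 in EcN and 9.13, 9.08 and 9.04 in ST, against 8.64, 8.60 and 8.98 in mock. Mock A and B kept the level of mock 60 min while mock C lay among the flagellin arrays, and the difference for both, 0.30 ± 0.09, was not called (adjusted p = 0.0886).

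QARS1, the glutamine enzyme (transcript cluster 16953862), stood at 9.48, 9.39 and 9.44 in EcN 60 min and 9.34, 9.28 and 9.32 in ST 60 min, against 9.63, 9.68 and 9.65 in mock 60 min. Every flagellin array lay below every mock array. The difference was -0.34 ± 0.09 for ST (adjusted p = 0.0339), -0.22 ± 0.09 for EcN (adjusted p = 0.129) and -0.28 ± 0.07 for both (adjusted p = 0.028). At 120 min it stood at 9.40, 9.48 and 9.36 in EcN and 9.32, 9.18 and 9.41 in ST, against 9.66, 9.54 and 9.45 in mock. The ST arrays lay below mock and the EcN arrays overlapped it. Over the 7 complex members the median difference for both flagellins at 60 min was 0.08, with 1 called higher and 1 lower. Over the 12 other synthetases it was 0.01, with 2 called higher and 0 lower.

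NARS1, the asparagine enzyme (transcript cluster 16855491), was called in no comparison and, among the members never called, had the smallest unadjusted p over the 11 comparisons that were not added later. It stood at 10.09, 10.00 and 10.17 in EcN 120 min and 10.21, 10.11 and 10.28 in ST 120 min, against 9.77, 9.57 and 10.04 in mock 120 min. The ST arrays lay above all mock arrays, by 0.41 ± 0.12 (adjusted p = 0.104). At 60 min it stood at 10.33, 10.04 and 10.13 in EcN and 10.30, 10.17 and 10.09 in ST, against 9.96, 9.97 and 10.11 in mock, and these groups overlapped.

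Of the 12 transporters, 2 were higher and 2 lower with both flagellins at 60 min, beside 4.53% and 5.75% of all genes. The heteromeric transporters pair a light chain with the heavy chain SLC3A2, and here the chains differed in direction. SLC3A2 (transcript cluster 16725984) stood at 9.43, 9.06 and 9.30 in EcN 60 min and 9.31, 9.38 and 9.43 in ST 60 min, against 9.07, 9.07 and 8.94 in mock 60 min. ST lay wholly above mock, while EcN B did not. The difference was 0.35 ± 0.10 for ST (adjusted p = 0.0493), 0.24 ± 0.10 for EcN (adjusted p = 0.147) and 0.29 ± 0.08 for both (adjusted p = 0.0386). At 120 min SLC3A2 stood at 9.38, 9.23 and 9.23 in EcN and 9.47, 9.36 and 9.44 in ST, against 9.17, 9.13 and 9.26 in mock, with ST again above mock and EcN overlapping it.

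SLC7A5, the light chain for large neutral amino acids known as LAT1 (transcript cluster 16829085), stood at 10.45, 10.35 and 10.43 in EcN 60 min and 10.65, 10.72 and 10.75 in ST 60 min, against 10.82, 10.83 and 10.76 in mock 60 min. The 3 groups did not overlap. EcN lay furthest below mock, at -0.40 ± 0.09 (adjusted p = 0.025), against -0.10 ± 0.09 for ST (adjusted p = 0.554). At 120 min SLC7A5 stood at 10.83, 10.55 and 10.56 in EcN and 10.67, 10.78 and 10.72 in ST, against 10.74, 10.58 and 10.61 in mock, and the groups overlapped.

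SLC7A6, a light chain that exchanges cationic for neutral amino acids (transcript cluster 16820398), stood at 7.98, 7.96 and 8.13 in EcN 60 min and 8.39, 8.34 and 8.37 in ST 60 min, against 8.67, 8.70 and 8.56 in mock 60 min. Again the groups did not overlap, with EcN lowest and ST between. The difference was -0.62 ± 0.12 for EcN (adjusted p = 0.0189), -0.27 ± 0.12 for ST (adjusted p = 0.199) and -0.45 ± 0.11 for both (adjusted p = 0.0181). At 120 min SLC7A6 stood at 8.30, 8.22 and 8.15 in EcN and 8.29, 8.39 and 8.27 in ST, against 8.54, 8.24 and 7.90 in mock. Mock A was the highest and mock C the lowest of these 9 arrays.

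SLC43A1, a uniporter of large neutral amino acids (transcript cluster 16738512), stood at 6.27, 6.07 and 6.07 in EcN 60 min and 5.73, 5.84 and 5.76 in ST 60 min, against 5.78, 5.24 and 5.29 in mock 60 min. EcN lay above mock, and ST overlapped it through mock A. It was higher than in mock by 0.70 ± 0.18 with EcN, which is 1.62-fold (adjusted p = 0.0324). The difference was 0.34 ± 0.18 with ST (adjusted p = 0.27) and 0.52 ± 0.15 with both (adjusted p = 0.0409). At 120 min SLC43A1 stood at 6.17, 6.05 and 5.71 in EcN and 5.74, 5.85 and 5.70 in ST, against 5.63, 6.34 and 6.25 in mock. Mock B and C were the highest of these 9 arrays and mock A the lowest.

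SLC38A9, the lysosomal arginine sensor (transcript cluster 16996256), stood at 4.39, 4.33 and 4.20 in EcN 60 min and 4.32, 4.30 and 4.09 in ST 60 min, against 4.54, 4.64 and 4.47 in mock 60 min. All 6 flagellin arrays lay below mock. It was called for both together at -0.28 ± 0.08 (adjusted p = 0.0461) and for neither alone. At 120 min SLC38A9 stood at 4.33, 4.10 and 4.32 in EcN and 4.36, 4.33 and 4.48 in ST, against 4.26, 4.29 and 4.20 in mock, so that the mock arrays had left their 60 min level.

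The other members passed no test against mock at 60 min with both flagellins. In the complex, LARS1, the leucine enzyme, differed by 0.27 ± 0.09 (adjusted p = 0.0641), and EPRS1, which charges both glutamate and proline tRNA, differed by 0.14 ± 0.08. The isoleucine, methionine and arginine enzymes IARS1, MARS1 and RARS1 differed by 0.08 ± 0.09, 0.08 ± 0.08 and 0.06 ± 0.09. Outside it, SARS1 ranged from 8.03 to 8.53 over the 18 arrays and differed by 0.24 ± 0.08 (adjusted p = 0.0744), and TARS1, the threonine enzyme, ranged from 9.13 to 9.57 and differed by -0.20 ± 0.08. The phenylalanine enzyme is built of FARSA and FARSB, which differed by -0.10 ± 0.08 and -0.27 ± 0.11. GARS1 for glycine, HARS1 for histidine, VARS1 for valine and YARS1 for tyrosine differed by 0.06 ± 0.10, 0.03 ± 0.11, -0.05 ± 0.08 and 0.00 ± 0.10. Among the transporters, the sodium-coupled carriers SLC38A1 and SLC38A2, which take up glutamine and other small neutral amino acids, differed by -0.19 ± 0.09 and -0.24 ± 0.10. SLC38A2 ranged from 10.59 to 11.16 over all arrays, with EcN 60 min A level with the highest mock array. The neutral amino acid exchangers SLC1A4 and SLC1A5 differed by 0.22 ± 0.10 and -0.08 ± 0.08, and SLC6A9, a glycine transporter, by 0.03 ± 0.14.

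**Figure D2:**
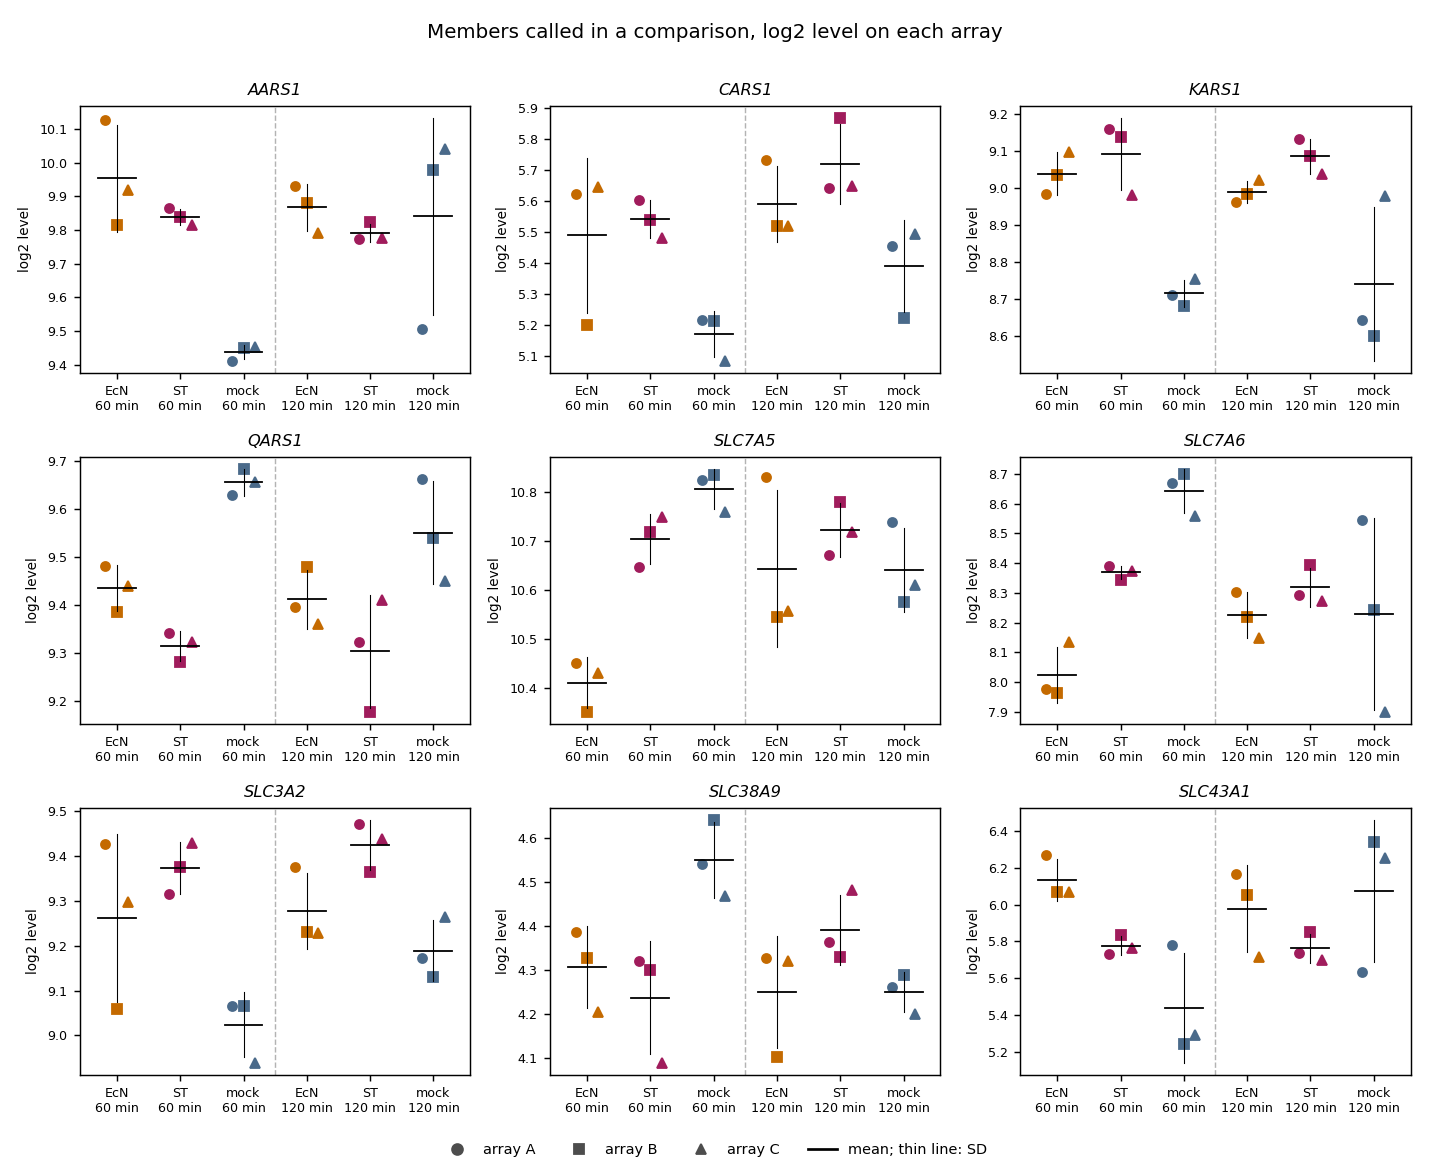
Log2 level of the 9 called genes on each array (circle A, square B, triangle C), with the group mean as a bar and its SD as a thin line, for EcN, ST and mock at 60 min and then at 120 min; each panel has its own axis. The mock 60 min arrays lie below all others in AARS1 and above all others in SLC7A6, while in SLC43A1 mock 60 min A lies among the ST arrays and away from B and C. The mock 120 min arrays spread widely in these 3 genes.

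These calls rest on small groups, and the share of all genes called moved with them. For both flagellins, 0 members were called without mock 60 min B or C, beside 2.68% and 2.18% of all genes. The count was 2 without mock 60 min A, beside 7.24%, and 3 without ST 60 min B, beside 7.29%. It was 4 without EcN 60 min C or ST 60 min A or C, and 5 without EcN 60 min B or ST 120 min A, beside 7.05% to 8.84% of all genes. For EcN, 0 members were called without mock 60 min B or C or EcN 60 min A or B, beside 0% to 1.5% of all genes. The count was 1 without EcN 60 min C, beside 0.503%, and 2 without mock 60 min A, beside 4.16%. For ST, 0 members were called without any one array of either compared group, beside 0.49% to 3.28% of all genes. The count was 1 without EcN 120 min A or B or ST 120 min A, beside 4.07% to 4.22%, and 5 without mock 120 min A or C, beside 8.11% and 8.45%. None of the 15 called differences changed sign when an array was left out. Leaving out an array outside the compared groups leaves a difference unchanged, and the 15 were picked as called on these arrays.

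The difference between the flagellins was measured directly. At 60 min none of the 31 genes was called for ST over EcN, as 0% of all genes were, and 4 had an unadjusted p under 0.05, all higher in ST, beside 4.16% of all genes. SLC7A5 differed by 0.29 (95% interval 0.10 to 0.49, adjusted p = 0.384), and SLC7A6 by 0.34 (0.08 to 0.61, adjusted p = 0.428). The ST and EcN arrays did not overlap for 7 of 31 genes, beside 18% of all genes. At 120 min again 0 of 31 were called, beside 0% of all genes, and 3 had an unadjusted p under 0.05, all higher in ST, beside 5.3%. These were SARS1, the serine enzyme, at 0.28 ± 0.09, FARSB, a chain of the phenylalanine enzyme, at 0.34 ± 0.12, and RARS1, the arginine enzyme, at 0.22 ± 0.10, with adjusted p of 0.284, 0.319 and 0.428. Of the 19 synthetases, 17 stood above 0 in ST over EcN at 120 min with a median of 0.10, against 50.7% of all genes above 0 and a median of 0.00. Arrays did not overlap for 8 of 31 genes, beside 21% of all genes.

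At 120 min no gene of the 31 was called against mock, in limma at adjusted p under 0.05. The background was 0.0621% of all genes for EcN, 0.559% for ST and 0.732% for both. At an unadjusted p under 0.05 the counts for EcN were 2 higher and 2 lower, beside 8.24% and 8.28% of all genes. For ST they were 7 higher and 1 lower, beside 8.99% and 8.57%. For both they were 4 higher and 3 lower, beside 9.3% and 9.38%. The ST arrays lay wholly outside the mock arrays for 11 of 31 genes, beside 16.5%, and 9 of these were above and 2 below, beside 8.81% and 7.68%. The EcN arrays did so for 4, beside 17.6%, and all 6 arrays for 2, CARS1 above and SLC38A2 below, beside 6.05%. The differences for both flagellins ranged from -0.23 to 0.35, and their 95% intervals from -0.53 to 0.57. Without mock 120 min C, KARS1 and NARS1 were called for both at 0.41 ± 0.08 and 0.48 ± 0.10 (adjusted p = 0.00727 and 0.0127), beside 7.74% of all genes. They were then also called for ST alone, beside 4.44%, and for EcN alone together with FARSB at -0.50 ± 0.13 (adjusted p = 0.0327), beside 7.31%. Without mock 120 min A, SLC7A1 was called for both at 0.40 ± 0.09 (adjusted p = 0.0336), beside 3.41% of all genes. It was then also called for ST at 0.38 ± 0.10 (adjusted p = 0.0418), as was FARSA, the other chain of the phenylalanine enzyme, at 0.31 ± 0.08 (adjusted p = 0.0449), beside 5.62%. No other single array, left out, gave a call at 120 min. In each of these genes the array left out was the mock array nearest the flagellin levels, so its removal widened the difference. These calls are therefore no separate support.

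**Figure D3:**
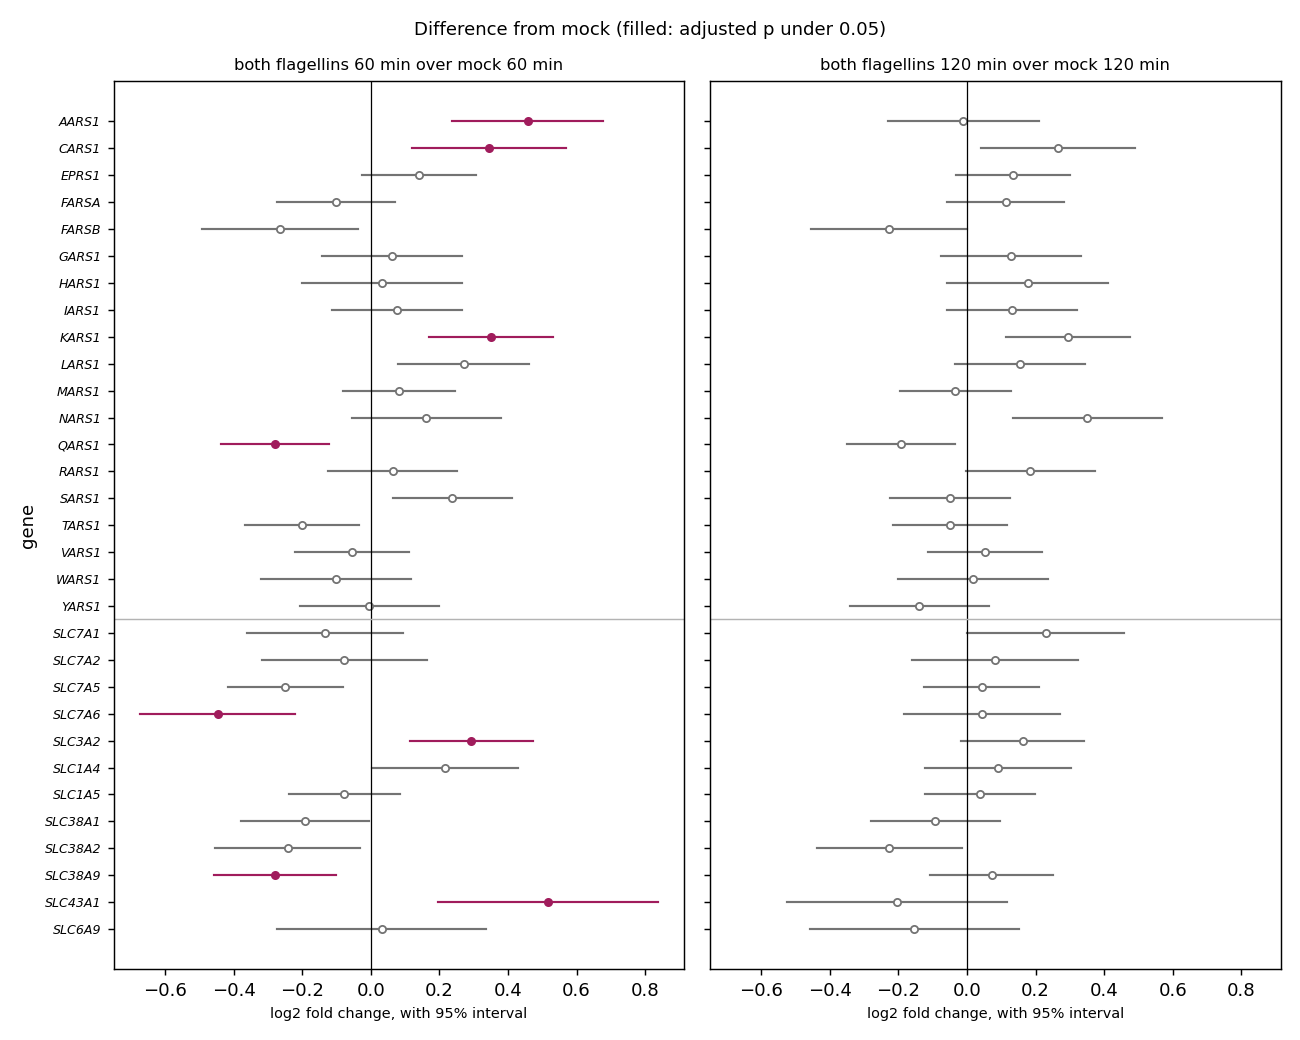
Log2 fold change of each of the 31 genes for both flagellins over mock at 60 min (left) and at 120 min (right), with 95% intervals from limma; filled points passed the adjusted p of 0.05. At 60 min 8 points are filled, 5 to the right of 0 and 3 to the left, and at 120 min none is.

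The mock arrays themselves differed between the times. For mock 120 min over mock 60 min 0 of 31 genes were called, beside 0% of all genes, with 3 genes higher and 3 lower by the unadjusted p alone (under 0.05), beside 5.97% and 6.13%. SLC43A1 differed by 0.64 ± 0.18, AARS1 by 0.40 ± 0.12 and SLC7A6 by -0.41 ± 0.12 (adjusted p = 0.221, 0.245 and 0.245). The mock groups did not overlap for 7 of 31 genes, beside 12.7% of all genes. Without mock 120 min A, 4 of 31 genes were called, beside 6.08% of all genes. They were AARS1 at 0.57 ± 0.10, SLC43A1 at 0.86 ± 0.16, SLC7A6 at -0.57 ± 0.11 and FARSA at -0.32 ± 0.08. No other single array, left out, gave a call here. In these 4 genes mock 120 min A stood nearer the mock 60 min arrays than mock 120 min B and C did. Its removal thus widened the differences, and these calls are no separate support. The comparison of the mock groups shares the mock 60 min arrays with that of EcN at 60 min, in which AARS1, SLC43A1 and SLC7A6 stood at 0.52, 0.70 and -0.62.

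Whether an effect of flagellin changed between the times was tested as an interaction. For EcN 0 of 31 were called, beside 0% of all genes, and for ST 0, beside 0%. By the unadjusted p alone, 6 interactions passed for EcN, beside 12% of all genes, and 3 for ST, beside 10.7%. The largest for EcN were -0.79 ± 0.25 for SLC43A1 and 0.61 ± 0.18 for SLC7A6 (adjusted p = 0.258 and 0.243). Without mock 120 min A, 4 were called for EcN: AARS1 at -0.66 ± 0.13, SLC7A1 at 0.58 ± 0.14, SLC7A6 at 0.77 ± 0.14 and SLC43A1 at -1.01 ± 0.21, beside 3.45% of all genes. For ST 2 were then called, AARS1 at -0.62 ± 0.13 and SLC43A1 at -0.87 ± 0.21, beside 2.95%. No other single array, left out, gave a called interaction. Mock 120 min A stood apart from mock 120 min B and C in these genes, so these calls follow from its levels and are no separate support.

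Between the times within flagellin, the arginine and lysine transporter SLC7A1 (transcript cluster 16777777) stood out, in comparisons added after the data had been seen. It stood at 9.01, 8.80 and 8.96 in EcN 120 min and 8.87, 8.86 and 8.95 in ST 120 min, against 8.56, 8.46 and 8.58 in EcN 60 min and 8.50, 8.67 and 8.64 in ST 60 min. All 6 arrays at 120 min lay above all 6 at 60 min, which held for 1 of 31 genes, beside 0.794% of all genes. The difference was 0.34 ± 0.09 and was not called (adjusted p = 0.294), as 0% of all genes were. Mock 120 min A stood at 9.02, with the flagellin arrays of its time, while mock 120 min B and C stood at 8.55 and 8.48, against 8.82, 8.70 and 8.57 in mock 60 min. SLC7A2, the related cationic transporter, ranged from 6.53 to 7.10 without such a split.

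WARS1 (transcript cluster 16796694), the member with an interferon element core, was called in no comparison, while ISG15 was called for ST at both times. It stood at 5.96, 5.95 and 5.82 in EcN 60 min and 5.93, 5.64 and 5.89 in ST 60 min, against 5.84, 6.06 and 5.99 in mock 60 min. At 120 min it stood at 5.94, 5.90 and 5.79 in EcN and 5.89, 5.93 and 6.19 in ST, against 6.05, 6.04 and 5.68 in mock. The groups overlapped at both times, and the 95% intervals of its differences from mock lay between -0.40 and 0.33. ISG15 stood at 6.41, 6.50 and 6.62 in ST 60 min and 6.27, 7.08 and 6.53 in ST 120 min, against 3.17, 3.19 and 3.79 in mock 60 min and 3.94, 4.15 and 4.28 in mock 120 min.

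Among the 8 members with the composite motif, 2 were called for both flagellins at 60 min, AARS1 and CARS1. Among the 19 matched members without it, 6 were called. Of all genes, 10.3% were called in this comparison, and the counts with and without the motif were not tested against each other. The motif was thus absent from the matched windows of KARS1, QARS1, SLC3A2, SLC7A6, SLC38A9 and SLC43A1, which says only that these letters are not in those windows.

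**Figure D4:**
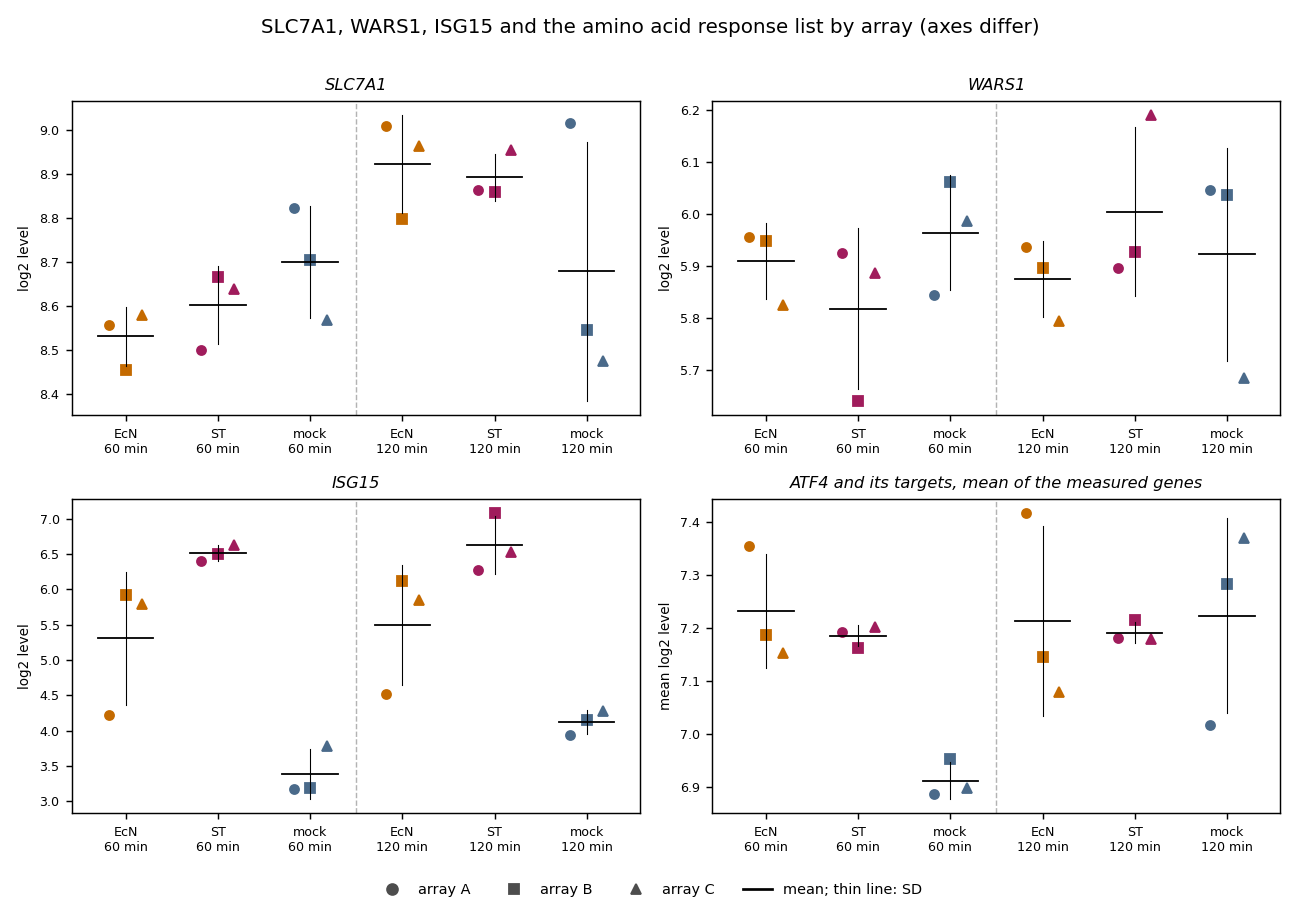
Log2 level of SLC7A1, WARS1 and ISG15, and the mean log2 level of the 21 measured genes of the ATF4 list, on each array (circle A, square B, triangle C), with group means as bars and SD as thin lines; axes differ between panels. SLC7A1 is higher in the flagellin arrays at 120 than at 60 min, WARS1 overlaps between all groups, ISG15 is highest in ST, and the ATF4 list is lowest on the mock 60 min arrays and next lowest on mock 120 min A.

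Some genes of the amino acid response, ATF4 and its known targets, were higher with flagellin than in mock at 60 min. Of 22 listed genes 21 were tested, and 5 were higher and 0 lower with both flagellins, beside 4.53% and 5.75% of all genes. These were the serine synthesis enzyme PHGDH by 0.41 ± 0.09, the mitochondrial enzyme PCK2 by 0.77 ± 0.15, the pseudokinase TRIB3 by 0.46 ± 0.14 and the transcription factors CEBPB by 0.46 ± 0.14 and ATF3 by 1.18 ± 0.30 (adjusted p = 0.0131, 0.00771, 0.0449, 0.0452 and 0.0221). The median of the 21 was 0.27, against 0.01 over all genes, with 20 of 21 above 0. PCK2 stood at 4.85, 4.85 and 5.12 in EcN 60 min and 4.97, 4.52 and 4.85 in ST 60 min, against 4.08, 4.05 and 4.15 in mock 60 min. ATF3 stood at 6.20, 6.23 and 7.12 in EcN 60 min and 6.40, 6.20 and 7.41 in ST 60 min. In mock 60 min it stood at 5.36, 5.47 and 5.40. Its highest levels were on the flagellin arrays lettered C, followed by mock 120 min A at 6.78, the arrays with high NFKBIA. ATF4 itself differed by 0.05 ± 0.09, and asparagine synthetase, ASNS, by 0.13 ± 0.16. The mean level of the list was 7.36, 7.19 and 7.15 in EcN 60 min and 7.19, 7.16 and 7.20 in ST 60 min, against 6.89, 6.95 and 6.90 in mock 60 min. In mock 120 min it was 7.02, 7.28 and 7.37, and mock B and C lay within the range of the flagellin arrays. For mock 120 min over mock 60 min the median of the list was also 0.27, with 0 called and 8 higher at an unadjusted p under 0.05, beside 5.97% of all genes. At 120 min 0 of the 21 were called for both flagellins, with a median of 0.01.

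Neighbouring groups of genes showed calls in both directions for both flagellins at 60 min, beside 4.53% of all genes higher and 5.75% lower. Of the mitochondrial synthetases, 15 of 17 were tested. CARS2 and RARS2, the mitochondrial cysteine and arginine enzymes, were higher by 0.53 ± 0.10 and 0.34 ± 0.09. PARS2, the proline enzyme, was lower at -0.75 ± 0.20. Of the other amino acid transporters, 13 of 15 were tested. The glutamate transporter SLC1A1 was higher by 0.69 ± 0.20, while SLC36A1, SLC15A4 and SLC16A10 were lower at -0.42 ± 0.12, -0.36 ± 0.11 and -0.29 ± 0.08. Of the genes that link lysosomal amino acids to mTORC1, 18 of 19 were tested. LAMTOR5 and SAR1B were higher by 0.61 ± 0.13 and 0.31 ± 0.09, while LAMTOR2 was lower at -0.40 ± 0.12. Of the 6 genes of the starvation kinase arm, which holds GCN2, 0 were called, with 0 at an unadjusted p under 0.05, beside 27% of all genes. AIMP1, a scaffold of the multi-synthetase complex and the 1 of 4 listed partners that was tested, differed by 0.19 ± 0.11 (adjusted p = 0.276).

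Markers of other cells were called in both directions. The leukocyte marker CD68 was higher at 60 min by 0.39 ± 0.11 for EcN and 0.34 ± 0.10 for both flagellins (adjusted p = 0.0445 and 0.0321). The intestinal marker LGR5 was lower at 60 min for EcN, at -0.59 ± 0.16 (adjusted p = 0.0364), and the fibroblast marker LUM was lower at 120 min for ST, at -0.997 ± 0.199 (adjusted p = 0.0419). KRT18, a HEK293 marker, was higher at 60 min for both flagellins by 0.45 ± 0.11 (adjusted p = 0.0172). It was the only 1 of the 6 HEK293 markers called there. The differences of these 6 ran from -0.44 to 0.45, with 4 above 0 and 2 below. Without adjustment, 3 of the 6 passed 0.05 above mock and 2 below it. The shares of all genes called were 10.3% for both flagellins and 6.45% for EcN at 60 min, and 0.559% for ST at 120 min. The mean of the 2 leukocyte markers that passed the filter was 5.88 to 6.09 in EcN 60 min and 5.87 to 6.10 in ST 60 min, against 5.75 to 5.91 in mock 60 min. That of the 4 intestinal markers was 4.65 to 4.88 in EcN 60 min and 4.78 to 4.94 in ST 60 min, against 5.06 to 5.08 in mock 60 min. All 6 flagellin arrays lay below mock in this mean, as they did for 9.4% of all single genes. That of the 3 fibroblast markers was 4.20 to 4.33 in EcN 60 min and 3.82 to 4.05 in ST 60 min, against 3.92 to 4.18 in mock 60 min. Each of these means joins clearly measured genes with genes near the array medians, namely CD14 at 2.60, VIL1 at 2.38, MUC2 at 2.45 and PDGFRB at 2.09. The part of the markers in the results was not tested. In bulk samples fewer cells and less RNA per cell cannot be told apart.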

How the data were processed

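Per the submitters' processing notes, the deposited values are log2 levels made with RMA in oligo 1.30.0, and no genome build for the array is given in the sources used here. They were used as deposited. Of 53617 rows, 23871 had 1 gene symbol in the platform annotation. A row was kept where 3 or more of the 18 arrays had it above the array's median, and the row with the highest mean stood for its gene, which left 16111 genes. No 2 arrays held identical values. The model was fitted in R 4.3.3 with limma 3.58.1 (6 group means over all 18 arrays, 12 residual degrees of freedom), two-sided, with Benjamini-Hochberg adjustment within each of 11 comparisons and 3 added after seeing the data. The precision is limited by the 3 arrays per group. The fit was tested on simulated data of 16111 genes for both flagellins at 60 min, in 5 runs. It recovered 11.8% of 1.25-fold, 58.6% of 1.5-fold and 88.9% of 2-fold differences, and 4.7% of its calls were false. Small differences could thus go uncalled. The 31 genes, the other lists and the tests were chosen with earlier results of these data known.

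Levels are shown on every array for the called members and for the member next by p. Of the other lists, up to 4 called genes were named by size of difference. SLC7A1, WARS1, PCK2, ATF3, ATF4 and ASNS were singled out after their values were seen. Alternatives covered the filter, centring, renewed quantile normalization, a trended robust fit, array weights, a replicate block, the choice of row, the compared groups alone, and arrays left out. Same-lettered arrays deviated together in part: of 45 pairs 10 correlated over 0.1, among them 5 of 6 pairs of flagellin arrays lettered C (up to 0.27) and 1 of 27 pairs with a mock array. Not every pair did, and the main fit did not use the letters as pairs. It therefore leaves out what the arrays lettered C shared, and a run with a replicate block is given below.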

Additional observations from a re-analysis of the deposited data

How the results depend on the processing

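The counts of the 31 genes called at 60 min moved with the processing. None of the 15 called differences changed sign in any alternative run: 278 values kept their call and 157 lost it. Runs that keep a comparison's arrays, levels and equal weights leave its difference unchanged. The 15 were also picked as called on these same arrays, so an unchanged sign is no further support. For ST over mock at 60 min (3 called), the count was 0 with no filter, 6 with the stricter filter, 6 with the trended robust fit, 7 with array weights, 0 with the replicate block, 0 without the arrays lettered C, 0 without the 5 arrays with high NFKBIA and 1 with the compared groups alone. For both flagellins over mock at 60 min (8 called), it was 4 with no filter, 13 with array weights, 5 with the replicate block, 0 without the arrays lettered C, 4 without the 5 arrays with high NFKBIA and 5 with the compared groups alone. For EcN over mock at 60 min (4 called), it was 0 without the arrays lettered C and 4 with the replicate block, which changed no other count. For ST over mock at 120 min (0 called) it was 2 with the trended robust fit, and for both flagellins at 120 min 2 with that fit and 1 without the arrays lettered C. Without the 5 arrays with high NFKBIA, mock 120 over mock 60 min had 3 called and the EcN interaction 1. Leaving out 1 array gave 0 to 5 for EcN at 60 min, 0 to 5 for ST, 0 to 10 for both, 0 to 3 for EcN at 120 min, 0 to 2 for ST, 0 to 2 for both, 0 to 4 for mock 120 over mock 60 min, 0 to 4 for the EcN interaction, 0 to 2 for the ST interaction, and 0 to 0 for ST over EcN at either time and for the 3 added comparisons. Calls over all genes moved as well when 1 array was left out. At 60 min they ran from 0 to 1856 for EcN, 79 to 1362 for ST and 352 to 2273 for both. At 120 min they ran from 0 to 1177, 0 to 905 and 0 to 1247. For the other settings in this section no share of all genes is given, so their counts are no result about the members alone. Leaving arrays out also leaves fewer arrays to estimate the spread. Other causes of these shifts were not tested. Other scalings shifted the median of all genes by at most 0.03. The letters shared deviations among the flagellin arrays lettered C (correlations of 0.09 to 0.27) and less so with mock arrays (-0.24 to 0.11). The part of these shared deviations in the calls lost under the block was not tested.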
